A study of Mus musculus with 11 samples.

Results

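Interferon response and MHC class I genes were followed in otospheres, which are floating spheres grown from dissociated cells of the cochlear sensory epithelium (CSE), in the CSE itself and in mouse embryonic stem cells (ESCs). The set of 35 genes was chosen by symbol: the MHC class I chains, the proteins that supply and load their peptides, the transcription factors of the interferon pathway, the cytoplasmic RNA sensors, and effectors that interferon is known to induce. A probe could be matched to 33 of the 35 genes by its transcript accession, out of 20284 genes with a matched probe on the array. Mx1 and Mx2 had no matched probe and were not analysed here. Where a gene had several probes, the brightest one was used, and all 33 probes passed the filter on dim signals.

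CSE came from ICR mice on postnatal day 1, with 20 cochleae of 10 pooled mice in each dissection, and was free of the spiral ligament and stria vascularis but not sorted by cell type. Otospheres were grown in suspension from the trypsin-dissociated CSE of such mice for 4 or 5 days in medium with N2, B27, bFGF, IGF1 and heparan sulfate, passaged 1 time, grown for another 4 or 5 days and passed through a strainer to keep the solid spheres. The ESCs were at passage 13 and were grown with serum and LIF without feeder cells, and their 2 samples were of different lines, ES1 of G4-2 and ES2 of D3. The study's methods give no mouse strain for these lines, so cell type and strain cannot be told apart in comparisons with ESCs. The labels named no engineered allele for any group, which does not show that the ESC lines were unmodified. No interferon was named in any medium.

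Cells read out interferon and foreign RNA through a shared pathway. The sensors RIG-I (Ddx58) and MDA5 (Ifih1) recognize RNA in the cytoplasm and lead to the release of interferons, whose receptors signal through JAK kinases to a transcription factor complex that contains IRF9, and this complex binds a DNA element called the ISRE. Its targets include antiviral effectors and, together with IRF1 and NLRC5, the genes of MHC class I presentation, in which immunoproteasome subunits cut peptides, TAP carries them into the endoplasmic reticulum and tapasin loads them onto the heavy chain paired with beta-2-microglobulin. Pluripotent stem cells are known for a weak response to interferon and low surface MHC class I.

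The data were 11 single-colour arrays, 6 of otospheres (OS1 to OS6), 3 of CSE and 2 of ESCs, on 2 slides, the first with ES1, OS1 to OS3, CSE1 and CSE2 and the second with ES2, OS4 to OS6 and CSE3. Of 59305 spots besides controls, 55.1% to 71.6% carried the scanner's flag for a signal well above background, and none was saturated. Among 13637 bright probes, OS1 and OS2 differed by 1.03 times the noise between spots of a probe and OS4 and OS5 by 0.449 times, against 1.89 times or more for any other pair of a group, so each of these pairs was averaged into 1 sample (OS1-2 and OS4-5). This left 4 otosphere, 3 CSE and 2 ESC samples. Separate cultures were not stated for the otosphere samples, so p-values measure the spread between these samples, which may be technical in part. Levels are log2 signals after quantile normalization, differences are on the same log2 scale, and a difference was called when its adjusted p in a limma model of the 3 groups over 47958 probes (Benjamini-Hochberg) was under 0.05. As a check of the labels, 7 of 8 ESC marker genes were lower in otospheres than in ESCs. Nanog was not (a difference of 1.44, adjusted p = 0.105 by limma). It was read here by 1 matched probe, while the study lists Nanog among the genes high only in ESCs. The study also detected no NANOG protein in otospheres, so what this probe reads is uncertain. Of 10 supporting cell markers, Prox1 alone was above background on no otosphere array.

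**Figure D1:**
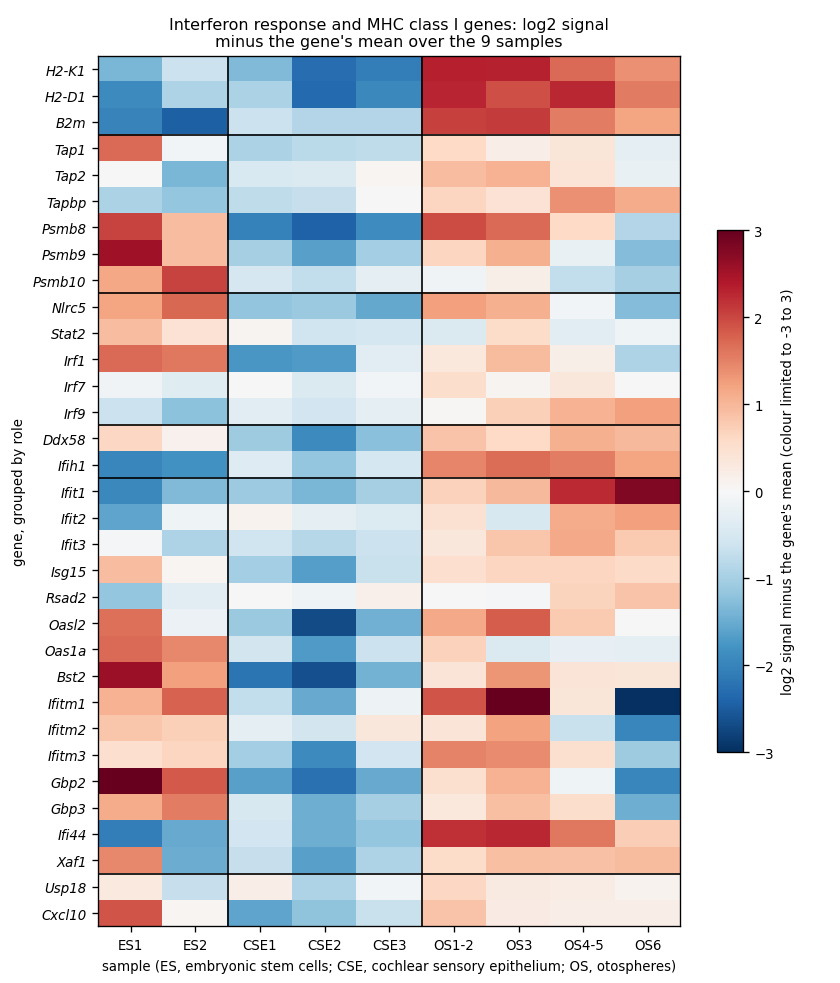
Log2 signal of the 33 genes with a probe (rows, grouped by role and separated by lines) in the 2 ESC, 3 CSE and 4 otosphere samples (columns), centred on the mean of the 9 samples for that gene, with the colour limited to -3 to 3. The MHC class I chains and the RNA sensors were high in all 4 otosphere samples, while the immunoproteasome subunits and the Gbp genes were high in ESCs and low in OS6.

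Between otospheres and CSE, 14 of the 33 genes were called higher in otospheres and 0 lower (limma). Over all probes, 4.84% were called higher and 6.20% lower, and these shares also stand beside the counts of the other gene lists in this comparison. At an unadjusted p under 0.05 the counts for the 33 genes were 21 and 0. The share of all probes at that threshold was not computed. The 3 MHC class I chains, both RNA sensors and 6 of 15 antiviral effectors were among the 14, together with Tapbp, Psmb8 and Irf9. The difference was positive for 32 of the 33 genes, with a median of 1.47 against 0.02 over all probes, and all otosphere samples were above all CSE samples for 19 genes, against 10.8% of all probes. The 3 class I chains rose by 5.71-fold (B2m) to 14.2-fold (H2-K1). In bulk RNA, fewer cells of a type and less RNA per cell cannot be told apart. Across the 3 groups, 23 of the 33 genes passed the F-test of the same model, against 33.8% of all probes.

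Promoter letters are shown for the called genes in which the ISRE core or the GAS core (the gamma-activated element) was found before the start, since these are the genes that were high together. The motifs searched were GAAA, any 2 bases and GAAA for the ISRE core, and TTC, any 3 bases and GAA for the GAS core, on both strands, in windows from 250 bases before to 50 bases after the RefSeq start (GRCm38.p6). The letters of a match are in capitals, matches to the ISRE core on the opposite strand read TTTC, any 2 bases and TTTC, and matches can overlap each other.
B2m (chr2:122147523-122147582, + strand): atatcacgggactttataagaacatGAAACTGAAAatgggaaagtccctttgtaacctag
Psmb8 (chr17:34198072-34198131, + strand): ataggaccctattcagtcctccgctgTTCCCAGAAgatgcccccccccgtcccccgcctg
Ifit1 (chr19:34640769-34640828, + strand): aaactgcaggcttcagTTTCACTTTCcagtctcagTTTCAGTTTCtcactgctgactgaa
Ifit3 (chr19:34583365-34583424, + strand): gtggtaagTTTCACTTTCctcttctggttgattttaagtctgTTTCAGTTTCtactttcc
Isg15 (chr4:156200856-156200915, - strand): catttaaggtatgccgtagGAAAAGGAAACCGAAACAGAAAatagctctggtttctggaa
Bst2 (chr8:71537568-71537627, - strand): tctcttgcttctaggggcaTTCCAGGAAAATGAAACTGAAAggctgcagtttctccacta
Ifit1 and Ifit3 each held 2 separate ISRE cores on the opposite strand, while Isg15 held 3 overlapping ones and Bst2 held 2 that overlapped each other, the first of which also overlapped a GAS core. Of the 30 genes of the set with a promoter in the table, 15 held the ISRE core somewhere in the window, against 3.44% of 32851 promoters, and 6 held the GAS core, against 8.3%. A gene was counted when any of its promoters matched, while the shares of all promoters count each promoter singly. The set was also chosen to hold genes that interferon is known to induce, so its ISRE share is no result of these data. Within the set, the ISRE core was found in 7 of the 14 genes called higher and in 8 of the other 16 with a promoter, so its presence did not separate the genes that were called. Of the 3 MHC class I chains, B2m held it and no match was found in the windows of H2-K1 and H2-D1. A match of letters is a description and not a measured site.

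H2-K1, a classical heavy chain that presents peptides to CD8 T cells, had log2 signals of 15.16 in OS1-2, 15.13 in OS3, 14.54 in OS4-5 and 14.21 in OS6, against 11.50, 10.55 and 10.76 in CSE1 to CSE3 and 11.47 and 12.20 in ES1 and ES2. Every otosphere sample was above every sample of the other groups. The difference from CSE was 3.82 (14.2-fold, SE 0.33, adjusted p = 2.49e-04 by limma) and that from ESCs 2.92 (7.59-fold, adjusted p = 5.35e-04 by limma). A second, dimmer H2-K1 probe gave 3.37 against CSE.

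H2-D1, the other classical heavy chain, read 14.29, 13.93, 14.27 and 13.56 in OS1-2, OS3, OS4-5 and OS6, against 11.05, 9.67 and 10.06 in the 3 CSE samples and 10.10 and 11.07 in the ESC samples. Otospheres again stood above both other groups without overlap, by 3.75 against CSE (13.5-fold, SE 0.37, adjusted p = 4.67e-04 by limma) and by 3.43 against ESCs (10.8-fold, adjusted p = 4.22e-04 by limma). B2m, the light chain shared by all class I molecules, read 16.15, 16.21, 15.64 and 15.28 in otospheres, 13.46, 13.23 and 13.22 in CSE and 12.10 and 11.65 in ESCs. Its 3 groups did not overlap, and all 3 pairwise differences were called: otospheres exceeded CSE by 2.51 (SE 0.25, adjusted p = 4.98e-04 by limma) and ESCs by 3.95 (15.4-fold, adjusted p = 2.69e-05 by limma), and CSE exceeded ESCs by 1.43 (adjusted p = 0.00671 by limma). The heavy chains did not show this order, since CSE and ESCs overlapped for both, with differences of -0.90 for H2-K1 and -0.32 for H2-D1 (adjusted p = 0.13 and 0.652 by limma). For all 3 chains, OS6 was the lowest of the otosphere samples. In the differences of these chains from ESCs, cell type and mouse strain cannot be told apart.

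Of 23 measured genes of the nonclassical class I and loading list, 8 were higher in otospheres than in CSE and 0 lower, with a median difference of 0.35. The largest were H2-Q7 (3.97), H2-K2 (3.88), H2-Q6 (3.35), H2-Q2 (3.19) and H2-T23 (2.74), while Tapbpl, a tapasin-related protein, rose by 2.35. Probes of the H2 genes can share target sequence with close relatives and are uncertain as to which gene they read. The general chaperones of the loading complex, Calr, Canx and Pdia3, gave differences of -0.53, -0.34 and -0.20 and were not called.

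In the supply chain, 2 of 6 genes were called higher in otospheres than in CSE and 0 lower. Psmb8, an immunoproteasome subunit, read 10.99, 10.72, 9.63 and 8.14 in OS1-2, OS3, OS4-5 and OS6, against 6.99, 6.61 and 7.15 in CSE and 11.05 and 9.96 in ESCs. All otosphere samples were above CSE, by 2.96 (7.76-fold, SE 0.63, adjusted p = 0.018 by limma), but they covered 2.85 log2 units, and ESCs lay within or above their range. The difference was 1.74 within slide 2, which had CSE3 as its only CSE sample, and the call was lost when any 1 CSE sample was left out. Tapbp, which encodes tapasin, read 12.75, 12.56, 13.49 and 13.23 in otospheres, 11.36, 11.43 and 12.10 in CSE and 11.17 and 10.94 in ESCs. Here OS4-5 and OS6 were the highest otosphere samples, and the difference from CSE was 1.38 (2.6-fold, SE 0.28, adjusted p = 0.0136 by limma) and that from ESCs 1.95 (adjusted p = 0.00171 by limma).

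Tap1, a subunit of the peptide transporter, read 7.96, 7.56, 7.75 and 7.11 in otospheres and 6.43, 6.57 and 6.61 in CSE. These groups did not overlap, but the difference of 1.06 was not called (adjusted p = 0.134 by limma), and the ESC lines read 9.08 and 7.29. Tap2, the other transporter subunit, and the immunoproteasome subunits Psmb9 and Psmb10 overlapped between otospheres and CSE, with differences of 0.82, 1.26 and 0.09. The 3 immunoproteasome subunits therefore ranged from 0.09 to 2.96 in otospheres against CSE, and the 3 constitutive subunits that they replace (Psmb5, Psmb6 and Psmb7) from 0.04 to 0.38 with none called. Psmb10 was at 12.22 to 13.39 in otospheres, 12.48 to 12.93 in CSE and 14.39 to 15.26 in ESCs, and was lower than in ESCs by 4.06-fold in otospheres (adjusted p = 0.00346 by limma) and 4.32-fold in CSE (adjusted p = 0.00362 by limma).

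Irf9, the DNA-binding subunit of the complex that binds the ISRE, was the only 1 of 5 factors called higher in otospheres than in CSE. It read 11.01 in OS1-2, 11.68 in OS3, 12.03 in OS4-5 and 12.21 in OS6, against 10.67, 10.40 and 10.71 in CSE and 10.34 and 9.74 in ESCs. All otosphere samples were above the others, and the difference was 1.14 against CSE (SE 0.30, adjusted p = 0.0406 by limma) and 1.69 against ESCs (adjusted p = 0.00508 by limma). The first of these was the least stable of the 14 calls and was lost under 12 of 23 alternative analyses. Stat2, another member of the pathway, overlapped between the groups (9.42 to 10.41 in otospheres and 9.25 to 9.92 in CSE).

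Nlrc5, the transactivator of the class I genes, had 2 probes that differed, of which the brighter was above background on 5 of 6 otosphere arrays, on 0 of 3 CSE arrays and on both ESC arrays. Its signals were 7.44, 7.28, 6.14 and 4.92 in OS1-2, OS3, OS4-5 and OS6, 5.02, 5.10 and 4.68 in CSE and 7.41 and 7.94 in ESCs, so OS6 lay within the CSE samples and the other otosphere samples above them. For this probe, the level in otospheres was at least 2.67-fold that of CSE, which was not called (adjusted p = 0.134 by limma), and CSE was lower than ESCs by at least 6.27-fold (adjusted p = 0.013 by limma). The second probe, above background on 10 of 11 arrays, gave only 0.21 between otospheres and CSE and -0.57 between CSE and ESCs, so neither bound holds for the gene as a whole. Irf1, an interferon-induced activator, ranged from 10.39 to 12.26 in otospheres, 9.57 to 10.98 in CSE and 12.91 to 13.03 in ESCs, and was called only as lower in CSE than in ESCs (7.54-fold, adjusted p = 0.00456 by limma). Irf7, a factor that amplifies interferon production, read 6.54, 6.10, 6.35 and 6.04 in otospheres and 6.03, 5.59 and 5.93 in CSE without overlap, and the difference was not called (0.41, adjusted p = 0.25 by limma).

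Both sensors were higher in otospheres than in CSE in every sample. Ddx58 read 11.74, 11.47, 11.94 and 11.84 in OS1-2, OS3, OS4-5 and OS6, against 9.81, 8.96 and 9.62 in CSE and 11.48 and 11.01 in ESCs. The otosphere samples were within 0.5 of each other and overlapped the ESCs, and the difference from CSE was 2.28 (4.86-fold, SE 0.24, adjusted p = 6.28e-04 by limma). Ifih1 read 9.15, 9.35, 9.22 and 8.87 in otospheres, 7.30, 6.54 and 7.17 in CSE and 5.74 and 5.88 in ESCs. Its 3 groups did not overlap, in the order of otospheres, CSE and ESCs, with differences of 2.14 between otospheres and CSE (SE 0.22, adjusted p = 5.25e-04 by limma), 3.34 between otospheres and ESCs (10.1-fold, adjusted p = 2.9e-05 by limma) and 1.20 between CSE and ESCs (adjusted p = 0.00785 by limma). Ddx58 and Ifih1 thus differed in the ESCs: Ddx58 was higher in ESCs than in CSE by 3.45-fold (adjusted p = 0.0017 by limma) and Ifih1 lower. Dimmer second probes of Ddx58 and Ifih1 gave smaller differences between otospheres and CSE, 0.98 and 0.39, with adjusted p = 0.0568 and 0.166 by limma.

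**Figure D2:**
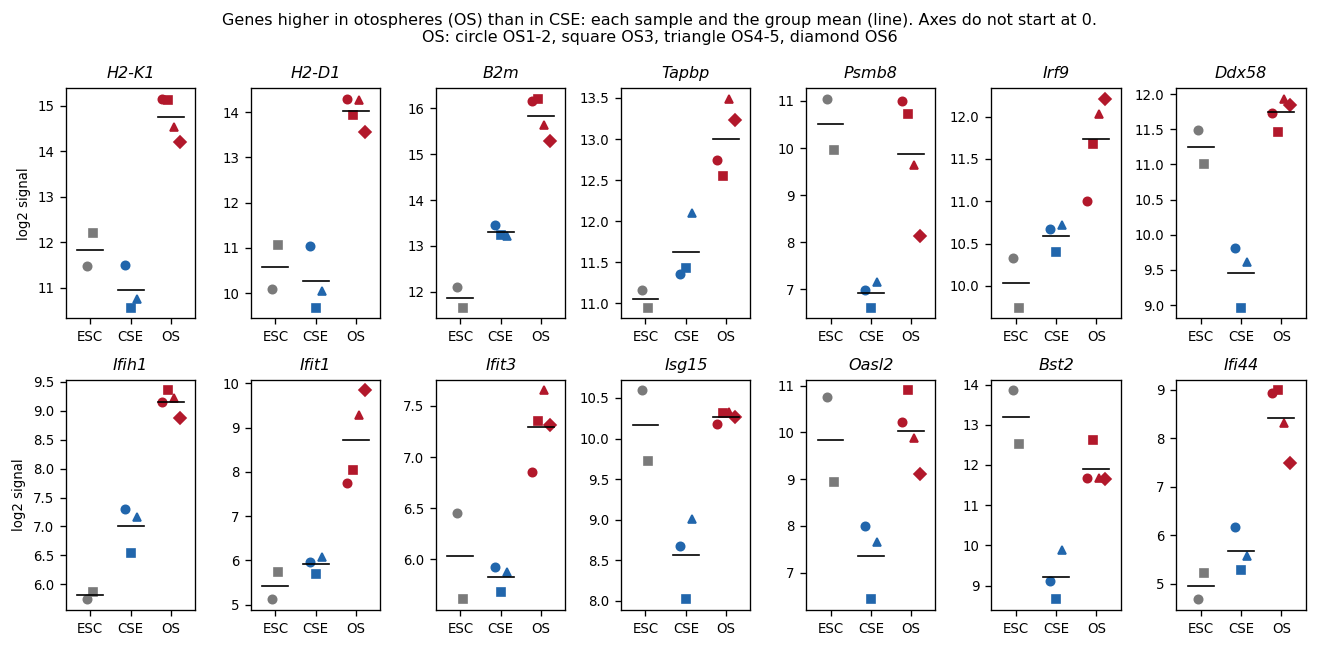
Log2 signal of the 14 genes called higher in otospheres than in CSE, in each ESC (grey), CSE (blue) and otosphere (red) sample, with the group mean as a line and axes that do not start at 0. All otosphere samples were above all CSE samples in each panel, and the ESCs were below both groups for B2m, Tapbp, Irf9, Ifih1 and Ifi44 and overlapped the otospheres for Psmb8, Ddx58, Isg15, Oasl2 and Bst2.

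Of 15 measured effectors, 6 were higher in otospheres than in CSE and 0 lower. Ifit1, which binds foreign RNA caps and blocks their translation, read 7.75 in OS1-2, 8.04 in OS3, 9.29 in OS4-5 and 9.85 in OS6, against 5.97, 5.69 and 6.07 in CSE. It was above background on 0 of 2 ESC arrays (5.12 and 5.74). The otosphere samples were all higher than the rest, by 2.82 against CSE (7.06-fold, SE 0.48, adjusted p = 0.00632 by limma) and at least 9.85-fold against ESCs (adjusted p = 0.00202 by limma), with the samples of the second slide above those of the first. Ifit3, of the same family, read 6.86, 7.35, 7.65 and 7.31 in otospheres, 5.92, 5.68 and 5.88 in CSE and 6.46 and 5.61 in ESCs, a difference of 1.47 from CSE (SE 0.25, adjusted p = 0.00636 by limma) and 1.26 from ESCs (adjusted p = 0.00976 by limma). Ifit2, their neighbour on chromosome 19, overlapped between otospheres and CSE. Its pair of high samples, OS4-5 (7.97) and OS6 (8.07), was that of Ifit1 but not of Ifit3.

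Isg15, the ubiquitin-like protein attached to other proteins after interferon, had the smallest spread of the 33 genes among otospheres, at 10.18, 10.32, 10.32 and 10.26, against 8.67, 8.02 and 9.01 in CSE and 10.60 and 9.73 in ESCs. Otospheres and ESCs overlapped, and otospheres exceeded CSE by 1.71 (3.26-fold, SE 0.27, adjusted p = 0.00478 by limma). A second probe gave 1.38. Oasl2, an oligoadenylate synthetase-like protein, read 10.22, 10.91, 9.88 and 9.11 in otospheres, 7.99, 6.43 and 7.66 in CSE and 10.75 and 8.93 in ESCs, which is 2.67 above CSE (6.37-fold, SE 0.57, adjusted p = 0.0181 by limma). This call was lost without CSE2, without CSE3 and within either slide, the second of which had CSE3 as its only CSE sample.

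Bst2, also called tetherin, which holds budding viruses at the cell surface, read 11.69, 12.62, 11.68 and 11.65 in otospheres, 9.10, 8.65 and 9.89 in CSE and 13.86 and 12.52 in ESCs. Otospheres exceeded CSE by 2.70 (6.48-fold, SE 0.41, adjusted p = 0.00379 by limma), and CSE was lower than ESCs by 15.7-fold (adjusted p = 4.46e-04 by limma). Ifi44, an interferon-induced cytoplasmic protein, was the opposite case in ESCs, at 4.67 and 5.22 and above background on 0 of 2 arrays. It read 8.93, 8.99, 8.31 and 7.48 in otospheres and 6.16, 5.27 and 5.58 in CSE, so otospheres exceeded CSE by 2.76 (6.76-fold, SE 0.39, adjusted p = 0.0025 by limma) and ESCs by at least 10.9-fold (adjusted p = 4.93e-04 by limma).

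The other 9 effectors were not called between otospheres and CSE, and 2 of them still did not overlap. Xaf1, an interferon-induced antagonist of the inhibitor of apoptosis XIAP, read 8.86, 9.23, 9.20 and 9.27 in otospheres and 7.62, 6.69 and 7.40 in CSE (1.91, adjusted p = 0.0746 by limma), while ES1 and ES2 were far apart at 9.77 and 6.84. A second Xaf1 probe gave 0.29 between otospheres and CSE. Oas1a, which makes the oligoadenylate that activates RNase L, read 9.93, 8.81, 8.99 and 8.94 in otospheres and 8.69, 7.54 and 8.59 in CSE (0.89, adjusted p = 0.17 by limma). Oas1a was higher in ESCs, at 10.94 and 10.68, than in otospheres (3.11-fold, adjusted p = 0.0144 by limma) and CSE (5.78-fold, adjusted p = 0.00208 by limma), and a second probe of it gave the same order of the groups.

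The remaining 7 effectors overlapped between otospheres and CSE. Rsad2, or viperin, overlapped CSE (means of 6.50 and 6.15) and exceeded ESCs, where it was above background on 0 of 2 arrays, by at least 2.15-fold (adjusted p = 0.0339 by limma), a call that was lost in 7 of 23 alternatives (adjusted p up to 0.249). Gbp2, a guanylate-binding protein, was at 6.20 to 9.21 in otospheres and 5.92 to 6.64 in CSE and was highest in ESCs (12.26 and 10.00), above otospheres by 8.66-fold (adjusted p = 0.0222 by limma). Gbp3 read 6.34 to 8.71 in otospheres, 6.35 to 7.32 in CSE and 8.91 and 9.33 in ESCs. The membrane proteins Ifitm1, Ifitm2 and Ifitm3, which restrict virus entry, ranged over 8.64, 3.18 and 2.53 log2 units among the otosphere samples, and their differences from CSE were 0.70, -0.10 and 1.74, none of them called. Ifitm1, at 7.44 in OS6 against 13.45 to 16.08 in the other otosphere samples, had the widest range of the 33 genes.

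Usp18, the protease that removes Isg15 and dampens the interferon receptor, overlapped between the groups (6.63 to 7.13 in otospheres, 5.59 to 6.71 in CSE and 5.82 to 6.82 in ESCs). Cxcl10, a chemokine for T cells, read 8.64 in OS1-2, 8.03 in OS3, 7.99 in OS4-5 and 7.98 in OS6, against 6.20, 6.59 and 7.12 in CSE and 9.68 and 7.86 in ESCs. Every otosphere sample was above CSE, but the difference of 1.52 just missed the threshold (adjusted p = 0.0504 by limma).

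**Figure D3:**
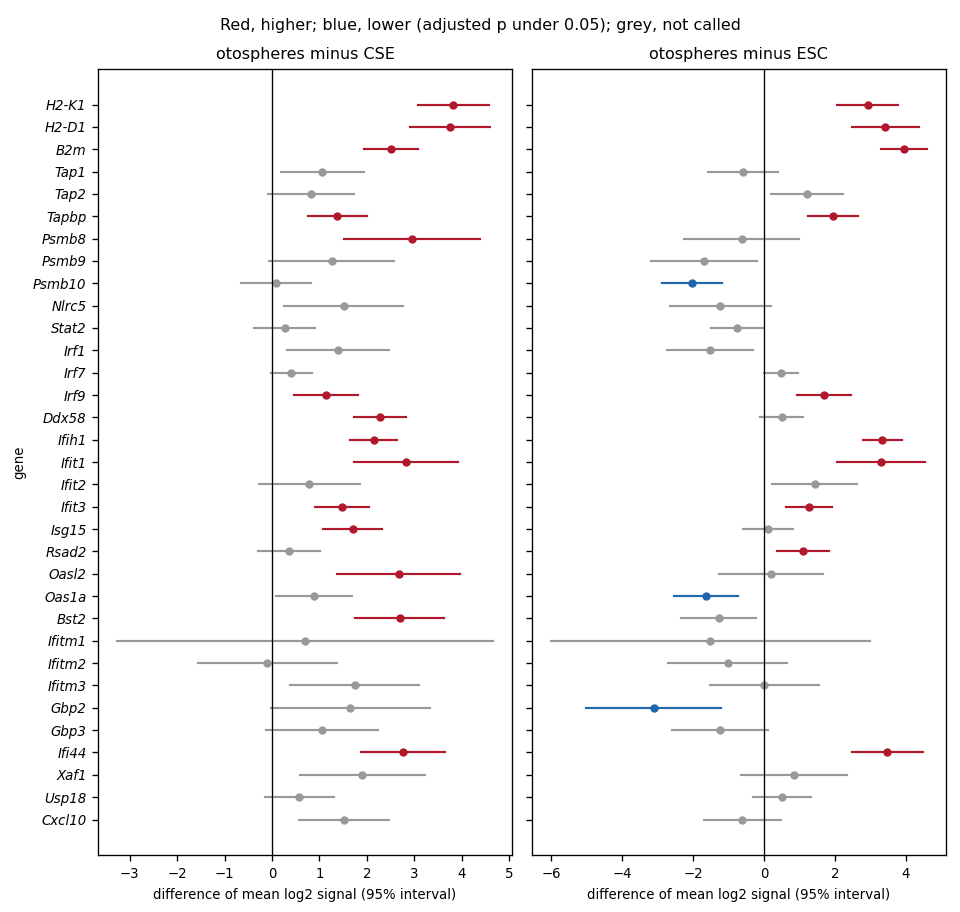
Difference of the mean log2 signal between otospheres and CSE (left) and between otospheres and ESCs (right) for the 33 genes, with the 95% interval of the limma model. Red points were called higher and blue points lower at an adjusted p under 0.05. Against CSE, 32 of 33 points lie above 0, and against ESCs 19 of 33 do. Both panels share the otosphere samples.

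Against ESCs, the same otosphere samples were called higher for 10 of the 33 genes and lower for 3, against 12.1% and 15.6% of all probes (27.7% in either direction). The median difference was 0.19, against -0.03 over all probes. All otosphere samples were above both ESC samples for 11 genes and below them for 5, against 20.7% and 25.5% of all probes. The higher genes were the 3 class I chains, Tapbp, Irf9, Ifih1, Ifit1, Ifit3, Rsad2 and Ifi44, and the lower ones Psmb10, Oas1a and Gbp2. Between CSE and ESCs, 2 genes (B2m and Ifih1) were higher in CSE and 14 lower, against 13.2% and 15.6% of all probes (28.8% in either direction), with a median of -1.07 against -0.06 over all probes. All CSE samples were below both ESC samples for 18 genes and above them for 6, against 28.5% and 23.7% of all probes. The 14 were Tap1, Psmb8, Psmb9, Psmb10, Nlrc5, Irf1, Ddx58, Isg15, Oasl2, Oas1a, Bst2, Gbp2, Gbp3 and Cxcl10. These comparisons share their samples with the one above and are no independent support for it. The 2 ESC lines also differed from each other, with Gbp2 lower in ES2 than in ES1 by a difference of -2.26. Xaf1 gave -2.93 with its brighter probe and 3.81 with its second probe, so its direction between the lines is not settled.

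Of 9 interferon ligand genes with a probe, Ifnb1, Ifna4, Ifne and Ifng were above background on no array and Ifnk on 1 CSE array, while Ifna1, Ifna2, Ifna5 and Ifnl3 were above it on all 11 arrays. The signals of these last genes were low, with otosphere means of 6.64, 6.41, 6.90 and 7.92, against 5.01 for Ifnb1. More than 55% of the spots on every array carried the flag, so it alone is weak evidence of expression. By limma, 0 of the 6 ligand genes that could be tested were called between otospheres and CSE, with the largest difference at 0.36 (Ifnl3). Secreted protein was not measured. Among 10 receptor and kinase genes, 3 were higher in otospheres than in CSE and 0 lower: Ifnlr1, the receptor chain for interferon lambda (1.70, adjusted p = 8.14e-04 by limma), Il10rb, its partner chain (1.37, adjusted p = 5.45e-04 by limma), and Ifnar2, a chain of the type I receptor (1.21, adjusted p = 0.0456 by limma). Ifnar1, the other chain of the type I receptor, was lower in every otosphere sample than in CSE by a difference of -0.53 that was not called (adjusted p = 0.0798 by limma), and Jak1, Jak2 and Tyk2 were not called either.

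Upstream of interferon, 4 of 16 sensor, adaptor and kinase genes were higher in otospheres than in CSE and 0 lower, namely Ikbke (2.42), a kinase for IRF3 and IRF7, the Toll-like receptors Tlr4 (2.13) and Tlr3 (1.75), and the adaptor Myd88 (1.88). Mavs, the mitochondrial adaptor of both RNA sensors, and its downstream kinase Tbk1 were not called (0.53 and 0.64). Of 10 negative regulators, only Ifi35 (2.09) was called. Among 42 tested genes of a longer list of interferon-stimulated genes, 12 were higher in otospheres than in CSE and 2 lower, with a median of 0.58. Over all probes, 4.84% were called higher and 6.20% lower, so the 2 lower genes were no more than that share. The 5 largest rises were Ifi204 (3.89), Ccl5 (3.82), Samd9l (3.38), Tor3a (2.91) and Irgm1 (2.41), and the 2 that fell were Gbp4 (-3.70) and Cmpk2 (-1.17). Adar, Ifi27 and Trim25, further interferon targets, were not called, with differences of -0.08, 0.13 and 0.21. Of 7 MHC class II genes, Cd74, the invariant chain, was called (3.64, adjusted p = 0.0234 by limma), and H2-Ab1 and H2-Eb1 overlapped between the groups.

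**Figure D4:**
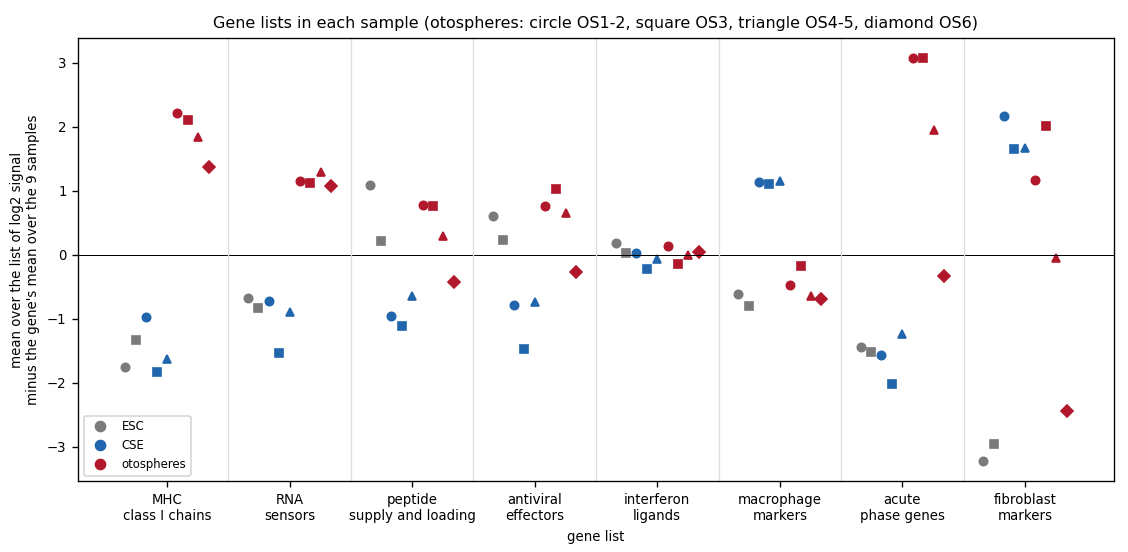
Mean over each gene list of the log2 signal, centred for every gene on its mean of the 9 samples, for each ESC (grey), CSE (blue) and otosphere (red) sample. The MHC class I chains and RNA sensors were high in all 4 otosphere samples, the interferon ligands did not separate the groups, macrophage markers were highest in CSE, and OS6 was lowest among otospheres for acute phase genes and fibroblast markers.

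Markers of immune cells did not rise with the set. Of 17 macrophage and myeloid markers, 11 were lower in otospheres than in CSE, among them Cx3cr1 (-4.66), Mrc1 (-4.26) and C1qc (-4.07). Only Cd14 was higher (5.50). The mean centred log2 signal of the list was -0.6952 to -0.1695 in otospheres and 1.101 to 1.146 in CSE, without overlap. It was -0.606 in ES1 and -0.7997 in ES2. The summed linear signal was 14700 to 28000 in otospheres, 15300 to 35200 in CSE and 6630 to 8450 in ESCs. This sum follows the brightest probes, such as Itgam (14.565 in CSE2) and Cd14 (14.325 in OS1-2), and does not measure myeloid content. C1qa, C1qc, Mrc1, Spi1 and Fcgr3 were above background on no otosphere array. Of 10 lymphocyte and NK cell markers, 0 were called in either direction. Endothelial, supporting cell and hair cell markers were also lower in otospheres than in CSE, with 8 of 12, 7 of 10 and 5 of 10 called. Over all probes, 6.20% were called lower and 4.84% higher, so 1 of 11 fibroblast markers called lower was near that share. Acute phase and NF-kB genes were higher in 8 of 18 tested, led by Lcn2 (9.07). The part of these lists in the differences of the interferon and class I genes was not tested.

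Within the otospheres the set did not vary as 1 block. OS6 was the lowest otosphere sample for 22 of the 33 genes and the highest for 5, while OS3 was the highest for 14. The mean over the 33 genes, relative to each gene's mean, was 0.86 in OS1-2, 0.98 in OS3, 0.64 in OS4-5 and -0.04 in OS6, against -0.80, -1.33 and -0.76 in CSE1 to CSE3. OS6 lay within the range of CSE for Tap2, Psmb9, Nlrc5, Stat2, Irf1, Ifitm3, Gbp2 and Usp18 and below it for Psmb10, Ifitm1, Ifitm2 and Gbp3, whereas for Irf9, Ifit1, Ifit2, Rsad2 and Xaf1 it was the highest otosphere sample. The RNA sensors were even, at 1.16, 1.13, 1.29 and 1.07. The same sample was low in the acute phase list (3.08, 3.08, 1.95 and -0.33 in OS1-2, OS3, OS4-5 and OS6) and in the fibroblast list (1.17, 2.01, -0.05 and -2.44). The part of these lists in the pattern was not tested. The otospheres of the second slide were lower than those of the first for 24 of the 33 genes, with a median difference of -0.41, and since all arrays of OS1 to OS3 lay on 1 slide and OS4 to OS6 on the other, culture and slide cannot be told apart in this comparison.

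The 14 calls between otospheres and CSE kept their sign in all 23 alternative analyses, and 8 genes (H2-D1, B2m, Ddx58, Ifih1, Ifit1, Isg15, Bst2 and Ifi44) were called in every one. Shares of all probes called were not computed for the alternatives. The H2-K1 difference was 4.12 within slide 1 and 3.62 within slide 2, which had CSE3 as its only CSE sample. Irf1 and Ifitm1 gave 2.37 and 3.57 within slide 1, and -0.04 and -2.50 within slide 2. Without OS6, 19 genes were called, among them Nlrc5 (2.02), Irf1 (1.75), Ifitm1 (2.55), Ifitm3 (2.29), Gbp2 (2.26) and Gbp3 (1.57), and without CSE2 there were 10, since Tapbp, Psmb8, Irf9 and Oasl2 were no longer called. In the authors' table the H2-K1 difference was 0.39 and was not called (adjusted p = 0.183 by limma). This probe is spotted 10 times, and probes spotted 10 times had log2 values in that table at a median ratio of 0.0994 to those from the scanner files (372 probes), against 0.976 for probes spotted once. The second H2-K1 probe, spotted once, gave 3.41 in that table.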

How the data were processed

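Cy3-labelled RNA (50 or 100 ng) was hybridized to 11 single-colour Agilent arrays. Per spot, the deposited Feature Extraction 10.7.3.1 output gives a median intensity, a local background intensity and a processed intensity. A further table by the authors holds log2 values after limma background correction, quantile normalization and a filter, used here as an alternative.

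For background correction, limma 3.58.1 (R 4.3.3) was run on the median intensities (normexp, offset 16, since the method is not given in the sources used here), followed by log2 and quantile normalization. Control spots and outlier spots were left out, and spots of a probe were averaged. The dim filter asked for 2 or more arrays on which a probe exceeded the negative controls' 95th percentile by 10% (47958 of 55681 probes passed; the methods ask for 3 arrays). Probes were named by accession through RefSeq (GRCm38.p6; 26762 probes, 20284 symbols), with the brightest probe per gene. "Above background" is the scanner's flag. Where no array of a group had it, a fold is a bound, set against the higher of the lowest signal well above background and the probe's own.

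A limma model of 3 group means (empirical Bayes, Benjamini-Hochberg over all kept probes, threshold 0.05) gave the comparisons. On simulated data for otospheres against CSE (47958 probes), it recovered 51% of 100 probes changed by 1.5 log2 units and 88% of 100 changed by 3. Only these probes were changed there, while 11.0% of all probes were called in the data. The adjustment is stricter when few probes change, so these shares are not the sensitivity of the comparison itself. The number of arrays limits the precision. Every member was named. Members called or not overlapping between otospheres and CSE were given for every sample, and of other lists at most the 5 largest called rises and falls, apart from ligands, receptors and kinases and a few genes chosen after their values were seen (Adar, Ifi27, Trim25, Mavs, Tbk1, Calr, Canx, Pdia3, Tapbpl, H2-Ab1 and H2-Eb1). The members, lists and tests were chosen with earlier results of these data known. Alternatives covered the offset, the normalization, the authors' table, the filter, the probe of a gene, the averaging of arrays, slide, replicate number and leaving out each sample.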

Additional observations from a re-analysis of the deposited data

Results flagged for a closer look

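In groups of 4 otosphere samples, 1 sample lay far from the other 3 for 4 of the 33 genes, where the gap to its nearest neighbour divided by the range of the group was above Dixon's critical value, and chance alone marks about 5% of groups in this way. Cxcl10 was high in OS1-2 (8.64 against 7.98 to 8.03, gap over range 0.926) and Oas1a was high in the same sample (9.93 against 8.81 to 8.99, 0.836), while Xaf1 was low there (8.86 against 9.20 to 9.27, 0.843). For Xaf1, the averaged arrays OS1 and OS2 read 8.67 and 9.06. They lay further apart than OS1-2 and its nearest sample, so this flag is within the spread of that pair. Bst2 was high in OS3 (12.62 against 11.65 to 11.69, 0.963). Ifitm1 in OS6, the widest gap in log2 units, was at 0.696 of the range and below this limit.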

How the results depend on the processing

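The signs of the called differences held in all 23 alternatives: 14 of 14 for otospheres against CSE, 13 of 13 for otospheres against ESCs and 16 of 16 for CSE against ESCs, with 8, 6 and 3 of them called each time. Leaving out 1 sample gave 10 to 19 genes higher in otospheres than in CSE and 0 lower, 9 to 11 higher and 1 to 7 lower against ESCs, and 2 higher and 8 to 15 lower for CSE against ESCs. Without ES1, 1 gene was lower in otospheres than in ESCs and 8 were lower in CSE than in ESCs. The former count was 7 without OS3 and 6 without ES2. With every array as a separate sample, 19 genes were higher in otospheres than in CSE, and 7 rather than 3 were lower than in ESCs. The latter count was 5 with the processed signal and 5 with cyclic loess. For CSE against ESCs, 1 gene in place of 2 was higher with the processed signal, with the authors' table and with the mean of all probes of a gene. Slide 2 held only CSE3 and ES2 of these groups, so its count is left out. The causes were not tested. In the authors' table, the low values given above for H2-K1 were also seen for Tap1 and Ifitm3 (10 spots each) and B2m (2 spots). Their differences between otospheres and CSE were 0.13, 0.18 and 1.25 there, against 1.06, 1.74 and 2.51 from the scanner files. Same-numbered arrays did not pair the groups (correlations of deviations between -0.392 and 0.356), so the fit of separate arrays with replicate number as a block stands only here. With the replicate block, 20 genes were higher in otospheres than in CSE, and 9 higher and 4 lower than in ESCs, and Ifitm2 reversed to 0.82 (adjusted p = 0.0404 by limma), from -0.10 with averaged arrays and -0.06 with separate arrays and no block.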
